A study of Mus musculus with 12 samples.

Results

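The 10 genes described here are the CDK inhibitors *Cdkn1a*, *Cdkn1b*, *Cdkn2a*, *Cdkn2b*, *Cdkn2c* and *Cdkn2d*, the pocket protein genes *Rb1*, *Rbl1* and *Rbl2*, and the antiproliferative gene *Btg2*. They were chosen by symbol, after the Ensembl identifiers of the deposited tables had been matched to mouse gene names. All 10 were among the 51825 genes of the deposited CPM table, in which reads are scaled to the mapped reads of the library, and 9 of them were among the 16152 genes of the deposited table of counts. The exception was *Cdkn2a*, whose values come from the CPM table alone. Lung RNA of untreated C57BL/6 mice, males and females without any engineered allele, was sequenced before birth (E15.5 and E18.5, in embryonic days) and after it (P5 and P8, in postnatal days), with 3 libraries per time-point. All 3 replicates of a group shared 1 litter, so that a difference between litters cannot be told apart from a difference between time-points. The p-values of the tests between time-points measure the spread within a litter. The permutation tests of ratios pool E15.5 with E18.5 and P5 with P8. Their p-values treat libraries and not litters as the samples. Since bulk tissue was sequenced, fewer cells expressing a gene and less RNA per cell cannot be told apart either.

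CDK inhibitors hold cyclin-dependent kinases in check and so restrain entry into S phase. The Cip/Kip proteins p21 (*Cdkn1a*), p27 (*Cdkn1b*) and p57 (*Cdkn1c*) bind several cyclin-CDK complexes, whereas the INK4 proteins p16 (*Cdkn2a*, which also encodes the p53 activator p19Arf from another reading frame), p15 (*Cdkn2b*), p18 (*Cdkn2c*) and p19 (*Cdkn2d*) bind the cyclin D partners CDK4 and CDK6. Their downstream targets are the pocket proteins pRB (*Rb1*), p107 (*Rbl1*) and p130 (*Rbl2*), which bind E2F transcription factors and repress cell cycle genes until cyclin-CDK complexes phosphorylate them. p107 is known as the pocket protein of cycling cells and its gene as an E2F target, and p130 as that of resting cells, where it joins the MuvB core in the DREAM complex. *Btg2* encodes a p53-inducible member of the BTG/TOB family that slows proliferation and recruits mRNA deadenylases. In mm10, the genes lie at chr17:29090976-29100727 (*Cdkn1a*), chr6:134920401-134925513 (*Cdkn1b*), chr4:109660876-109667189 (*Cdkn2c*), chr9:21288410-21291407 (*Cdkn2d*), chr14:73183673-73325822 (*Rb1*), chr2:157145893-157204534 (*Rbl1*), chr8:91070057-91123844 (*Rbl2*) and chr1:134075170-134079120 (*Btg2*). *Cdkn2a* (chr4:89274471-89294653) and *Cdkn2b* (chr4:89306299-89311039) are neighbours on the minus strand.

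RefSeq promoters (build GRCm38.p6, 250 bases before to 50 bases after a transcription start) matched 9 of the 10 genes, with 12 promoters in all, and *Rb1* had no entry. Each promoter was searched on both strands for E2F words (TTTCCCGC, TTTCGCGC, TTTGCCGC and TTTGGCGC), for words of the cell cycle genes homology region (CHR, TTTGAA and TTCGAA) and for the GC box (GGGCGG). These words share no overlapping match in the promoters below. An E2F word stood in 2 of the 12 promoters, those of *Rbl1* and of the upstream *Cdkn2a* start, against 2.28% of all 32544 mouse promoters. A CHR word stood in 2 of the 12, those of *Cdkn2b* and *Rbl2*, against 19.1% of all promoters, and a GC box in 10 of the 12, against 35.9%. These shares were not adjusted for base composition. GC content of the 12 ran from 44.0% to 77.0%, where the median of all promoters was 53%. The upstream *Cdkn1a* start held 2 CpG and the other member promoters from 8 to 45, where the median of all promoters was 7. The bases before the start are shown for *Rbl1*, which fell from E18.5 to P5, with its E2F word and GC box in capitals, for *Cdkn2b* and *Rbl2*, with their CHR word on the other strand, in capitals as its reverse complement, and for the downstream start of *Cdkn1a*, with its GC boxes in capitals. In lower case are all other bases, 5′ to 3′ on the strand of the gene. The regions are chr2:157204535-157204784 (minus strand) for *Rbl1*, chr4:89311033-89311282 (minus strand) for *Cdkn2b*, chr8:91069807-91070056 (plus strand) for *Rbl2* and chr17:29093519-29093768 (plus strand) for *Cdkn1a*.
Rbl1: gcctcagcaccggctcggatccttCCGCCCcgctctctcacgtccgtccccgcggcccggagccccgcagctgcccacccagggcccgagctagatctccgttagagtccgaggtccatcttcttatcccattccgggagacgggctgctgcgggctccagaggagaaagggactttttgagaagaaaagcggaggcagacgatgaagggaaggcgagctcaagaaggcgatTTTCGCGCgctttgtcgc
Cdkn2b: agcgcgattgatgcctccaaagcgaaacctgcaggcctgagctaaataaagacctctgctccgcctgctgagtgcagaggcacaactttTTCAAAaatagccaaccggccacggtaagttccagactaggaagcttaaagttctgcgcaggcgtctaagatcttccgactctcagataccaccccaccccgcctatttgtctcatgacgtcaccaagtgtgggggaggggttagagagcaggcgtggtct
Rbl2: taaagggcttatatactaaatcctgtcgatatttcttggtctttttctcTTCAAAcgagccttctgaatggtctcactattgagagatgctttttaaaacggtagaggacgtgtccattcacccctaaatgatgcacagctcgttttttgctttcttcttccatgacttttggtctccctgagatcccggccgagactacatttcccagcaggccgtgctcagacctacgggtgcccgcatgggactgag
Cdkn1a: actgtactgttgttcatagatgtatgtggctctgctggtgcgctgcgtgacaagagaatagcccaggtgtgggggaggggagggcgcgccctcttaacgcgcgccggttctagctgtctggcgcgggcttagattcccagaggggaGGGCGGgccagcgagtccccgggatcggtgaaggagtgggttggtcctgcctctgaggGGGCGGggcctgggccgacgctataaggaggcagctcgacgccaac
The E2F word of *Rbl1* spans positions -18 to -11 from the start, the CHR word of *Cdkn2b* -161 to -156 and that of *Rbl2* -201 to -196. A match is only a stretch of letters, and binding was not measured in these samples.

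Markers of the labelled tissue were present, with the AT1, AT2, endothelial and mesenchymal lists detected in all 12 libraries. Between 48436716 and 62279460 reads were mapped per library. Several marker lists moved with the time-points in which the 10 genes changed, and their part in those changes was not tested. The summed level of 4 AT2 markers was between 588 and 844 CPM in E15.5 libraries, between 1232 and 2111 in E18.5, between 14390 and 16381 in P5 and between 12293 and 14823 in P8 libraries. The 5 leukocyte markers summed to between 42.8 and 62.6 CPM in the embryonic libraries and to between 1780 and 2611 CPM in the postnatal ones, and the 4 erythroid markers to between 1770 and 2349 CPM and between 4679 and 8526 CPM. The 6 thymus and T cell markers stood out in E15.5 replicate 2 (30.2 CPM against 4.42 and 5.39 in the other two) and in P8 replicates 1 and 2 (175 and 327 CPM against 19.1 in replicate 3), and calls of the members that were gained or lost without these 3 libraries are given with both values. Heart muscle markers summed to 583 and 644 CPM in E15.5 replicates 1 and 2 and to between 12.8 and 192 CPM in the other libraries.

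**Figure D1:**
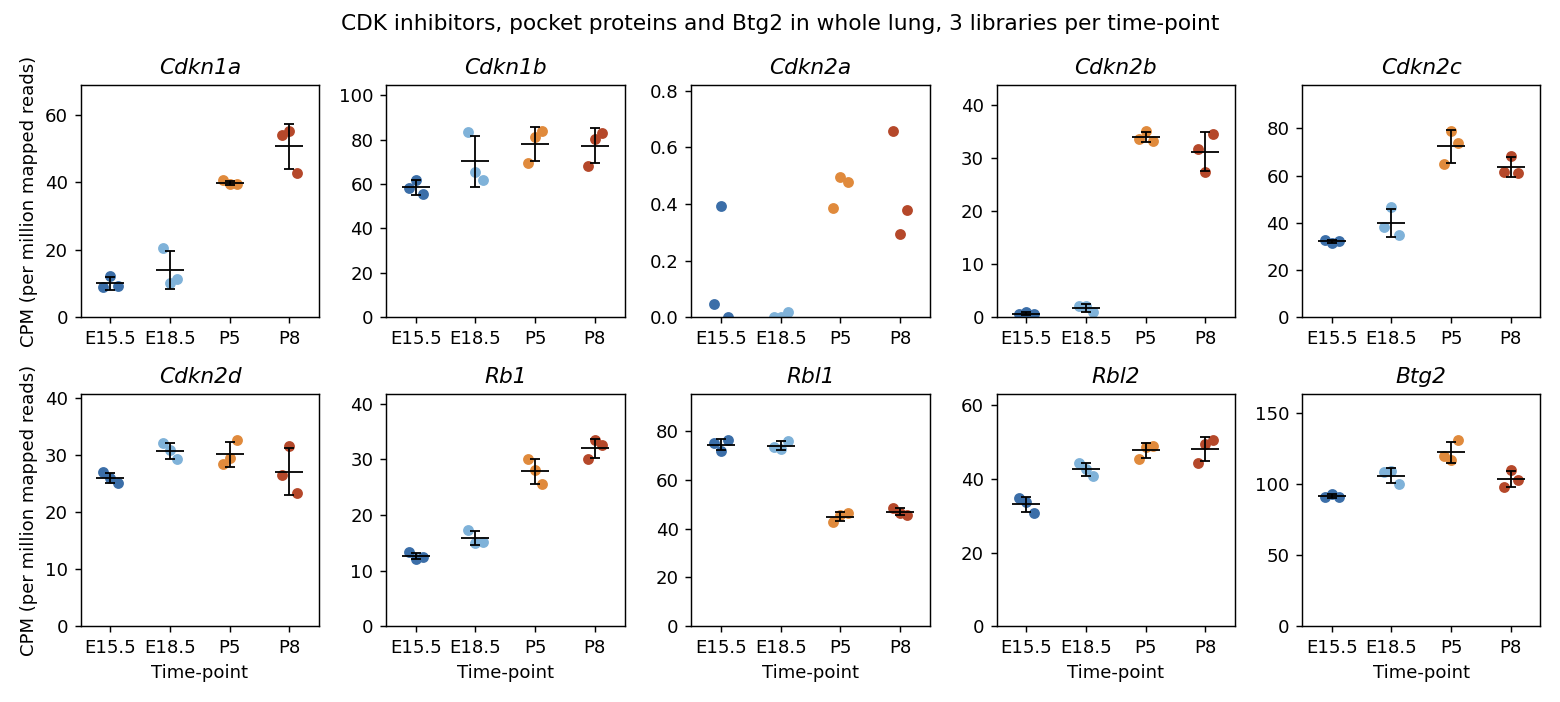
CPM of the 10 genes by time-point. Points are single libraries, and black bars are the mean and SD of 3 libraries (not drawn for *Cdkn2a*, which had 0 to 32 reads). *Cdkn2b* lies at or below 2.20 CPM in the 6 embryonic libraries and at or above 27.3 CPM in the 6 postnatal libraries, and *Rbl1* is lower in every postnatal library.

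Of the 9 members in the count test, 5 rose from E15.5 to E18.5 and none fell (*Cdkn2b*, *Cdkn2c*, *Rb1*, *Rbl2* and *Btg2*; edgeR quasi-likelihood test, FDR under 0.05 over all genes tested), where 21.5% of all 15994 genes tested were past the threshold in either direction, 11.6% upward and 9.87% downward. From E18.5 to P5, 6 rose (*Cdkn1a*, *Cdkn2b*, *Cdkn2c*, *Rb1*, *Rbl2* and *Btg2*) and *Rbl1* fell, so 7 of 9 passed, near the 71.1% of all genes tested (35.4% rose and 35.7% fell). From P5 to P8 only *Btg2* passed, by falling, against 18.0% of all genes (9.75% rose and 8.21% fell). Over the whole course from E15.5 to P8, 7 rose and *Rbl1* fell, which is 8 of 9 against 76.3% of all genes (37.6% rose and 38.7% fell), and *Cdkn2d* did not pass. The stricter call, which also needs an absolute log2 fold change above 1, was met by 1 member from E15.5 to E18.5 (background 3.04%), by 2 from E18.5 to P5 (26.8%), by 0 from P5 to P8 (2.96%) and by 4 from E15.5 to P8 (32.3%). Without the 3 libraries with thymus genes, 3 members passed from E15.5 to E18.5 (*Cdkn2b*, *Rbl2* and *Btg2*). The shares of all genes above belong to the fit with all 12 libraries and are no background for this smaller fit. It keeps only replicate 3 at P8, and its log2 fold change of *Btg2* from P5 to P8 was -0.28. With all libraries, the DESeq2 test called 1 member in that interval. In 7 of the 9 members the E18.5 and P5 libraries did not overlap, a separation that 77.1% of all genes tested also had. The median log2 fold change of the 9 members was 0.32, 0.29 and -0.03 over the 3 successive intervals, where that of all genes was -0.01, -0.00 and -0.00.

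**Figure D2:**
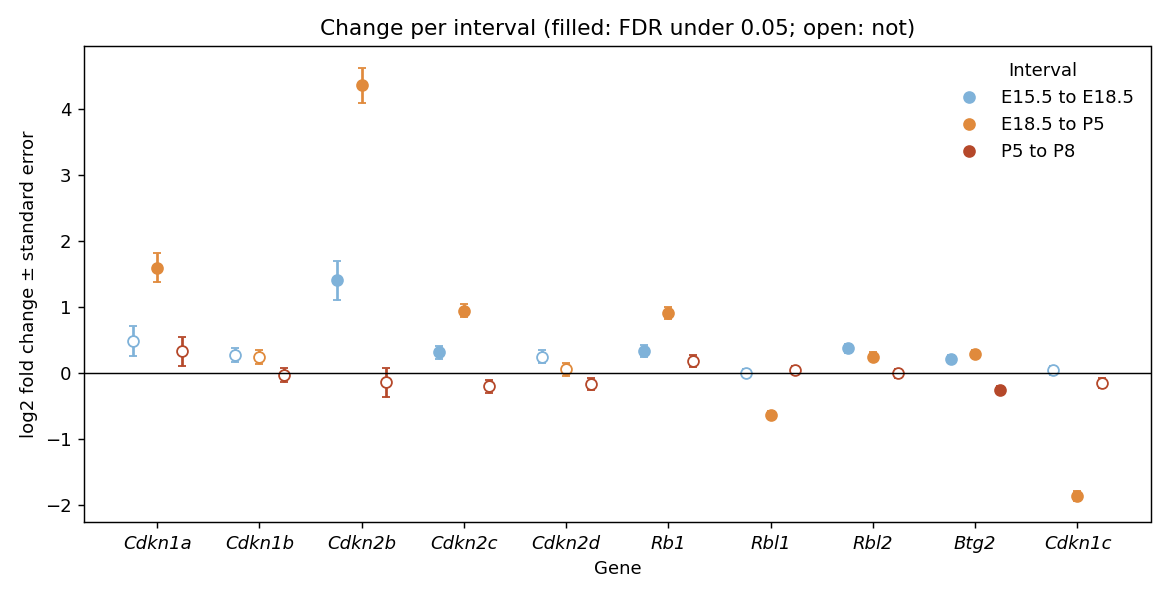
log2 fold change with its standard error (edgeR, TMM) for the 9 members in the count test and *Cdkn1c*, for each of the 3 successive intervals. Filled points have an FDR under 0.05 and open points do not; the change of *Cdkn2b* from E18.5 to P5 (4.36) is the farthest from 0, and *Rbl1* (-0.64) and *Cdkn1c* (-1.86) lie below 0 in the same interval.

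Among the Cip/Kip genes, *Cdkn1a* (p21, the main p53-inducible CDK inhibitor) was low before birth and higher after it. It stood at 8.88, 12.3 and 9.13 CPM in the E15.5 libraries, at 20.4, 10.3 and 11.3 CPM at E18.5, at 40.7, 39.6 and 39.5 CPM at P5 and at 54, 55.2 and 42.8 CPM at P8. The 6 postnatal libraries all lay above the 6 embryonic ones, while E18.5 replicate 1 lay well above the other E18.5 libraries. From E18.5 to P5 *Cdkn1a* rose by 1.60 on the log2 scale (SE 0.23, edgeR FDR = 3.9e-05), a fold of 3.03. Its changes from E15.5 to E18.5 (log2 fold change 0.48, SE 0.23, edgeR FDR = 0.15) and from P5 to P8 (0.33, SE 0.22, edgeR FDR = 0.31) were not past the threshold. The former value was 0.09 without E18.5 replicate 1. The rise around birth exceeded the change before it by 1.12 (SE 0.40, edgeR FDR = 0.034), but this difference was not past the threshold without E15.5 replicate 2, E18.5 replicate 2 or 3, or any 1 of the P5 libraries, with differences between 0.75 and 1.12 and the highest edgeR FDR at 0.16, nor without the 3 libraries with thymus genes (0.97, edgeR FDR = 0.060), and was 1.89 without E18.5 replicate 1.

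*Cdkn1b* (p27, which holds cyclin E-CDK2 in resting cells) varied less than its relative. Its libraries were at 58.1, 61.8 and 55.4 CPM at E15.5, at 83.4, 65.3 and 62.0 CPM at E18.5, at 69.5, 81.2 and 83.7 CPM at P5 and at 68.3, 80.4 and 83.1 CPM at P8. The E15.5 libraries were below all others, and the E18.5 libraries overlapped with both postnatal groups. No successive interval passed the threshold, with log2 fold changes of 0.27 (SE 0.11, edgeR FDR = 0.088), 0.24 (SE 0.11, edgeR FDR = 0.065) and -0.03 (SE 0.11, edgeR FDR = 0.86). Over the whole course from E15.5 to P8 *Cdkn1b* rose by 0.48 (SE 0.11, edgeR FDR = 0.0014). The change from E15.5 to E18.5 was past the threshold without E18.5 replicate 3 (0.36, edgeR FDR = 0.038) and with DESeq2 (0.28, FDR = 0.048), and was 0.12 without E18.5 replicate 1, the highest of its group (edgeR FDR = 0.36). Without the same library, the change from E18.5 to P5 was 0.39 and past the threshold (edgeR FDR = 0.0015). With all libraries the latter was also past the threshold with DESeq2 (0.26, FDR = 0.033) and limma-voom (0.25, FDR = 0.048). The same held within edgeR with DESeq2 size factors in place of TMM (0.26, edgeR FDR = 0.048) and on the recovered reads of all genes (0.23, edgeR FDR = 0.045).

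*Cdkn1c* (p57, an imprinted inhibitor that is high in embryonic tissues), which is no member but completes the family, moved the other way. It was between 168 and 198 CPM in the 6 embryonic libraries and between 43.8 and 54.1 CPM in the 6 postnatal ones, and fell by 1.86 on the log2 scale from E18.5 to P5 (SE 0.071, edgeR FDR = 1.3e-09). Per kilobase of merged exons, the summed level of the 3 genes was 112 ± 6.27 CPM per kb (SD, n = 3) at E18.5 and 52.3 ± 3.20 CPM per kb at P5. Within this sum, the share of *Cdkn1c* was 82.7% ± 2.62 at E18.5 and 45.7% ± 2.07 at P5, and that of *Cdkn1a* was 3.49% ± 1.18 and 21.5% ± 1.64. The *Cdkn1a* level relative to *Cdkn1b* within a library, as log2 ratio of counts plus 0.5, was -2.46 ± 0.26 (SD, n = 6) in the embryonic and -0.79 ± 0.30 (n = 6) in the postnatal libraries. That difference of 1.68 was past the threshold (exact two-sided permutation test, p = 0.00216, adjusted p = 0.00271 over the 5 ratios tested). This is the smallest p that 6 against 6 libraries allow, with libraries and not litters as the samples.

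The INK4 gene *Cdkn2b* (p15, inducible by TGF-beta and a neighbour of *Cdkn2a*) had the largest change of the 9 members tested from E18.5 to P5. Its 6 embryonic libraries held 34, 47 and 27 reads at E15.5 and 103, 115 and 52 reads at E18.5, which is 0.549, 0.924 and 0.531 CPM and 2.11, 2.20 and 0.952 CPM. Its postnatal libraries were at 33.5, 35.0 and 33.3 CPM at P5 and at 31.7, 27.3 and 34.5 CPM at P8. Each time-point up to P5 lay wholly above the one before, and P5 and P8 overlapped. *Cdkn2b* rose by 1.40 on the log2 scale from E15.5 to E18.5 (SE 0.30, edgeR FDR = 0.0075) and by 4.36 from E18.5 to P5 (SE 0.27, edgeR FDR = 3.0e-08), a 20.6-fold change. The difference between these intervals was 2.96 (SE 0.49, edgeR FDR = 3.9e-04). From P5 to P8 its log2 fold change was -0.14 (SE 0.22, edgeR FDR = 0.70), and over the whole course its fold was 49.4. With limma-voom in place of edgeR the first rise was not past the threshold (1.33, FDR = 0.069).

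*Cdkn2a* (p16 and p19Arf) was near the limit of detection and was tested only outside the planned count table. It had 3, 20 and 0 reads in the E15.5 libraries, 0, 0 and 1 reads at E18.5, 24, 24 and 29 reads at P5 and 32, 18 and 23 reads at P8. All P5 and P8 libraries lay above every E18.5 library, and 20 of the 23 reads of E15.5 came from replicate 2, the library with thymus genes. The P5 total of 77 reads was 69.8 times the single read of E18.5 per mapped read (95% counting interval from 12.2 to 2793, exact binomial, which covers counting error only). P5 and P8, with 77 and 73 reads, had a ratio of 0.952 (interval from 0.682 to 1.33). From E15.5 to P8 the ratio of reads per mapped read was 3.04 (interval from 1.88 to 5.09) and 16.1 without E15.5 replicate 2 (interval from 5.29 to 79.7). In an added fit on the whole reads recovered from the CPM table, *Cdkn2a* rose from E18.5 to P5 (log2 fold change 5.79, SE 1.2, edgeR FDR = 1.8e-04), and it fell by 4.04 from E15.5 to E18.5 (SE 1.27, edgeR FDR = 0.036). The latter call rested on E15.5 replicate 2, without which 3 reads at E15.5 stood against 1 at E18.5 and the log2 fold change was -1.67 (SE 1.42, edgeR FDR = 0.64). From E15.5 to P8 the fitted log2 fold change was 1.68 (edgeR FDR = 0.12), and 4.05 without this library (edgeR FDR = 5.5e-04). Fitted values against a single read depend on the prior count and set no bound. Reads of p16 and p19Arf share exons and were not separated. The *Cdkn2b* to *Cdkn2a* log2 ratio was 5.16 ± 2.57 (SD, n = 6) in the embryonic and 6.20 ± 0.35 (n = 6) in the postnatal libraries, a difference of 1.03 that was not past the threshold (exact two-sided permutation test, p = 0.398, adjusted p = 0.398) and became 2.93 with 0.1 CPM added in place of 0.5 reads (adjusted p = 0.00216). The difference was 0.24 without E15.5 replicate 2 (adjusted p = 0.805), 1.54 and 1.57 without E18.5 replicate 1 and 2, 0.66 without E15.5 replicate 1, and 0.33 without the 3 libraries with thymus genes (adjusted p = 0.794).

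*Cdkn2c* (p18, an inhibitor known to be highest around cell cycle exit of differentiating cells) rose in both intervals up to P5. The libraries were at 32.8, 31.6 and 32.4 CPM at E15.5, at 38.3, 46.7 and 34.9 CPM at E18.5, at 65.0, 78.7 and 73.7 CPM at P5 and at 61.4, 68.4 and 61.3 CPM at P8. Embryonic and postnatal libraries did not overlap. It rose by 0.32 from E15.5 to E18.5 (SE 0.096, edgeR FDR = 0.036) and by 0.94 from E18.5 to P5 (SE 0.096, edgeR FDR = 2.3e-06), and the intervals differed by 0.63 (edgeR FDR = 0.0085). The first of these calls was lost without any 1 of 5 of the 6 embryonic libraries (E15.5 replicate 1, 2 or 3, or E18.5 replicate 1 or 2), with log2 fold changes between 0.19 and 0.34, where the value without E18.5 replicate 2, the highest of its group, was 0.19 (edgeR FDR = 0.14). It was lost also without the 3 libraries with thymus genes (0.30, edgeR FDR = 0.089), with library size only (0.30, edgeR FDR = 0.052) and with limma-voom (0.30, FDR = 0.052).

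*Cdkn2d* (p19 of the INK4 family) did not pass the test in any comparison. Its libraries were at 27, 26.0 and 25.2 CPM at E15.5, at 32.1, 31.0 and 29.4 CPM at E18.5, at 28.4, 29.5 and 32.6 CPM at P5 and at 26.6, 31.6 and 23.3 CPM at P8. The E18.5 group lay above the E15.5 group, and all other pairs of neighbours overlapped. Its log2 fold changes were 0.25 (SE 0.093, edgeR FDR = 0.074), 0.05 (SE 0.093, edgeR FDR = 0.61) and -0.17 (SE 0.093, edgeR FDR = 0.22) over the successive intervals and 0.13 (SE 0.093, edgeR FDR = 0.20) from E15.5 to P8. Without P8 replicate 3 the last value was 0.23 and past the threshold (edgeR FDR = 0.015), and so was the first, at 0.26, without P8 replicate 2 or 3 (edgeR FDR = 0.038 and 0.018). Relative to *Cdkn2c*, its log2 ratio was -0.34 ± 0.13 (SD, n = 6) in the embryonic and -1.25 ± 0.12 (n = 6) in the postnatal libraries (exact two-sided permutation test, difference -0.91, p = 0.00216, adjusted p = 0.00271). Per kilobase, the 4 INK4 genes summed to 35.7 ± 3.18 CPM per kb (n = 3) at E18.5 and 70.9 ± 3.72 at P5. The share of *Cdkn2d* in that sum was 55.0% ± 3.60 and 27% ± 1.58, that of *Cdkn2b* 3.47% ± 1.17 and 34.4% ± 1.58, and that of *Cdkn2c* 41.5% ± 3.03 and 38.0% ± 1.77.

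**Figure D3:**
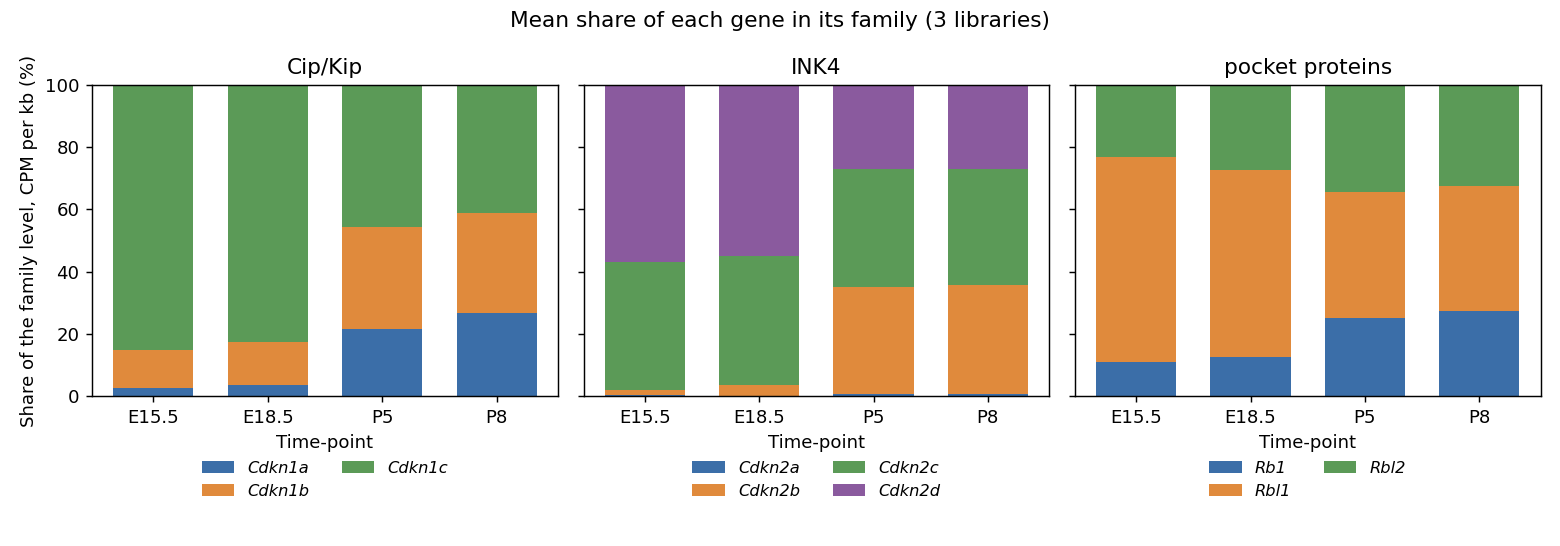
Mean share (in %, n = 3) of each gene in the summed level of its family, in CPM per kilobase of merged exons, for the Cip/Kip genes, the INK4 genes and the pocket proteins at the 4 time-points. *Cdkn1c* goes from 82.7% at E18.5 to 45.7% at P5, *Cdkn2b* from 3.47% to 34.4% and *Rbl1* from 59.9% to 40.6%.

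From E18.5 to P5 the pocket protein genes went in opposite directions, with *Rb1* and *Rbl2* rising and *Rbl1* falling. *Rb1* and *Rbl2* had also risen from E15.5 to E18.5. *Rb1* (pRB) was at 13.3, 12.1 and 12.5 CPM at E15.5, at 17.2, 15.0 and 15.2 CPM at E18.5, at 30.0, 28.1 and 25.5 CPM at P5 and at 30.1, 33.4 and 32.6 CPM at P8. Each group lay above the one before it, and the change from P5 to P8 was not past the threshold (log2 fold change 0.18, SE 0.087, edgeR FDR = 0.17). *Rb1* rose by 0.33 from E15.5 to E18.5 (SE 0.090, edgeR FDR = 0.023) and by 0.91 from E18.5 to P5 (SE 0.089, edgeR FDR = 1.6e-06), and the second rise was the larger by 0.58 (SE 0.16, edgeR FDR = 0.0086). The first rise was not past the threshold without E15.5 replicate 2 (0.30, edgeR FDR = 0.063), without E18.5 replicate 1 (0.25, edgeR FDR = 0.084), or without the 3 libraries with thymus genes (0.30, edgeR FDR = 0.089), nor with limma-voom (0.32, FDR = 0.054). Exons of *Lpar6* and *Rcbtb2* overlap those of *Rb1* on the opposite strand, and the strand setting of the counting was not given in the sources used here, so reads of these genes could not be told apart with certainty.

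Of the 9 members in the count test, *Rbl1* (p107) was the 1 that fell from E18.5 to P5 and over the whole course. It was at 75.0, 71.9 and 76.1 CPM at E15.5, at 73.3, 72.7 and 76.1 CPM at E18.5, at 42.7, 45.5 and 46.2 CPM at P5 and at 48.4, 46.6 and 45.7 CPM at P8. The embryonic groups overlapped, the postnatal groups overlapped, and no postnatal library reached the lowest embryonic one. From E18.5 to P5 it fell by 0.64 on the log2 scale (SE 0.057, edgeR FDR = 6.6e-07), to 0.642 of its level, while the changes before (0.00, SE 0.056, edgeR FDR = 1.0) and after (0.05, SE 0.057, edgeR FDR = 0.57) were not past the threshold. The change around birth differed from the one before it by -0.64 (SE 0.096, edgeR FDR = 2.1e-04).

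*Rbl2* (p130) rose in the 2 intervals before P5. It was at 34.7, 33.6 and 30.8 CPM at E15.5, at 44.4, 42.5 and 40.8 CPM at E18.5, at 45.3, 48.7 and 49.0 CPM at P5 and at 44.2, 49.5 and 50.4 CPM at P8. The first 3 groups did not overlap, and P5 and P8 did. It rose by 0.37 from E15.5 to E18.5 (SE 0.063, edgeR FDR = 0.0025) and by 0.25 from E18.5 to P5 (SE 0.063, edgeR FDR = 0.0033), and the test of the difference between these intervals did not pass (-0.12, SE 0.11, edgeR FDR = 0.36). Its exons overlap those of *Aktip* on the opposite strand, with the same limit as for *Rb1*.

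Within a library, *Rbl2* was below *Rbl1* before birth and at about its level in reads after it. The mean log2 ratio of *Rbl2* to *Rbl1* was -1.17 at E15.5 and -0.80 at E18.5, so part of the shift came before birth. That of *Rb1* to *Rbl1* was -2.56 and -2.23. The tests below pool these 2 time-points. The log2 ratio of *Rbl2* to *Rbl1* was -0.98 ± 0.22 (SD, n = 6) in the embryonic libraries and 0.06 ± 0.10 (n = 6) in the postnatal ones (exact two-sided permutation test, difference 1.05, p = 0.00216, adjusted p = 0.00271). That of *Rb1* to *Rbl1* was -2.39 ± 0.20 and -0.62 ± 0.15 (exact two-sided permutation test, difference 1.77, n = 6 and 6, p = 0.00216, adjusted p = 0.00271). Since libraries of a time-point share a litter, these p-values treat libraries and not litters as the samples. The summed level of the 3 pocket protein genes was 18.9 ± 0.43 CPM per kb (n = 3) in the E15.5 libraries and 20.6 ± 0.36 in those of E18.5, then 18.4 ± 0.29 in those of P5 and 19.5 ± 0.50 in those of P8. Inside this sum *Rbl1* held 65.7% ± 1.44, 59.9% ± 1.62, 40.6% ± 1.24 and 40.2% ± 2.18, and *Rb1* 11.1% ± 0.28, 12.7% ± 0.82, 25.2% ± 2.28 and 27.3% ± 0.78.

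*Btg2* rose up to P5 and then fell. It was at 91.1, 93.2 and 91.0 CPM at E15.5, at 109, 110 and 100.4 CPM at E18.5, at 120, 117 and 131 CPM at P5 and at 98.3, 110 and 103 CPM at P8. Each of the first 3 groups lay above the one before, and the P8 libraries lay below the P5 libraries and overlapped with those of E18.5. It rose by 0.22 from E15.5 to E18.5 (SE 0.056, edgeR FDR = 0.018) and by 0.29 from E18.5 to P5 (SE 0.056, edgeR FDR = 4.7e-04), and it fell by 0.26 from P5 to P8 (SE 0.056, edgeR FDR = 0.011). The change from P5 to P8 differed from the one before it by -0.55 (SE 0.097, edgeR FDR = 4.6e-04). The rise from E15.5 to E18.5 was lost without E15.5 replicate 1, E18.5 replicate 1 or E18.5 replicate 2 (log2 fold change between 0.19 and 0.21, highest edgeR FDR = 0.068), and the fall from P5 to P8 without the 3 libraries with thymus genes (-0.28, edgeR FDR = 0.096).

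Tests of the differences between intervals passed for 5 of the 9 members when the change before E18.5 was set against the one after it (*Cdkn1a*, *Cdkn2b*, *Cdkn2c*, *Rb1* and *Rbl1*), where 48.7% of all genes passed. For the change from E18.5 to P5 against that from P5 to P8, 6 passed (these 5 and *Btg2*), where 52.4% of all genes passed. *Rbl2* did not pass the latter test (-0.26, SE 0.11, edgeR FDR = 0.063), but did without E18.5 replicate 1 (edgeR FDR = 0.033) or without P8 replicate 3 (edgeR FDR = 0.041), and *Cdkn1b* did without E18.5 replicate 1 (-0.42, edgeR FDR = 0.019). *Cdkn2d* passed it without the 3 libraries with thymus genes (-0.46, edgeR FDR = 0.021, against -0.22 and 0.26 with all libraries). The intervals are of unequal length, and both tests of differences use the libraries of E18.5 and P5.

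Per kilobase of merged exons, *Btg2* was at the top of the 10 genes at each time-point, with 33.5 ± 0.45 CPM per kb (SD, n = 3) at E15.5 and 44.7 ± 2.66 at P5, and *Cdkn2a* at the bottom. In the embryonic libraries the next level was that of *Cdkn2d* (16.6 ± 0.58 CPM per kb at E15.5), followed by *Cdkn1b*, *Rbl1* and *Cdkn2c*, of which each overlapped with its neighbour in that order at E15.5, whereas at E18.5 *Cdkn2c* stood above *Rbl1* and overlapped with *Cdkn1b*. *Cdkn2b* was in the ninth place at E18.5 (1.26 ± 0.50 CPM per kb). At P5 it stood beside *Cdkn2c* at the head of the inhibitors among the 10 genes, at 24.4 ± 0.67 against 27 ± 2.59 CPM per kb, with overlapping libraries. *Cdkn1c*, which is not ranked here, was at 92.2 ± 2.36 CPM per kb at E18.5 and 23.9 ± 2.26 at P5. At P8 *Cdkn2c*, *Cdkn2b*, *Cdkn2d*, *Cdkn1b* and *Cdkn1a* followed *Btg2* in this order, from 23.7 ± 1.52 down to 14.3 ± 1.92 CPM per kb, and each overlapped with the next. *Rb1* was the lowest of the pocket proteins at every time-point, at 2.1 ± 0.099 CPM per kb at E15.5 and 5.32 ± 0.29 at P8.

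S phase and mitosis genes, many of which are known targets of repression by pocket proteins, fell from E18.5 to P5. All 12 S phase genes and all 12 mitosis genes of the lists fell, with median log2 fold changes of -1.22 and -1.40 where the median of all genes was -0.00. In this interval 35.7% of all genes tested fell. *Pcna* (the DNA polymerase clamp) went from 240 ± 24.8 to 141 ± 11.8 CPM (log2 fold change -0.68, edgeR FDR = 5.9e-06) and *Mcm6* (replicative helicase) from 261 ± 16.5 to 98.1 ± 6.70 CPM (-1.33, edgeR FDR = 2.9e-08). *Top2a* (topoisomerase of dividing cells) went from 471 ± 24.2 to 161 ± 10.6 CPM (-1.46, edgeR FDR = 1.9e-07) and *Mki67* from 444 ± 29.3 to 187 ± 2.34 CPM (-1.16, edgeR FDR = 7.0e-05). Before that, from E15.5 to E18.5, 8 of the 12 S phase genes and 5 of the 12 mitosis genes fell, against 9.87% of all genes. From P5 to P8, 2 S phase genes rose and 1 gene of each list fell. In that interval 9.75% of all genes rose and 8.21% fell.

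**Figure D4:**
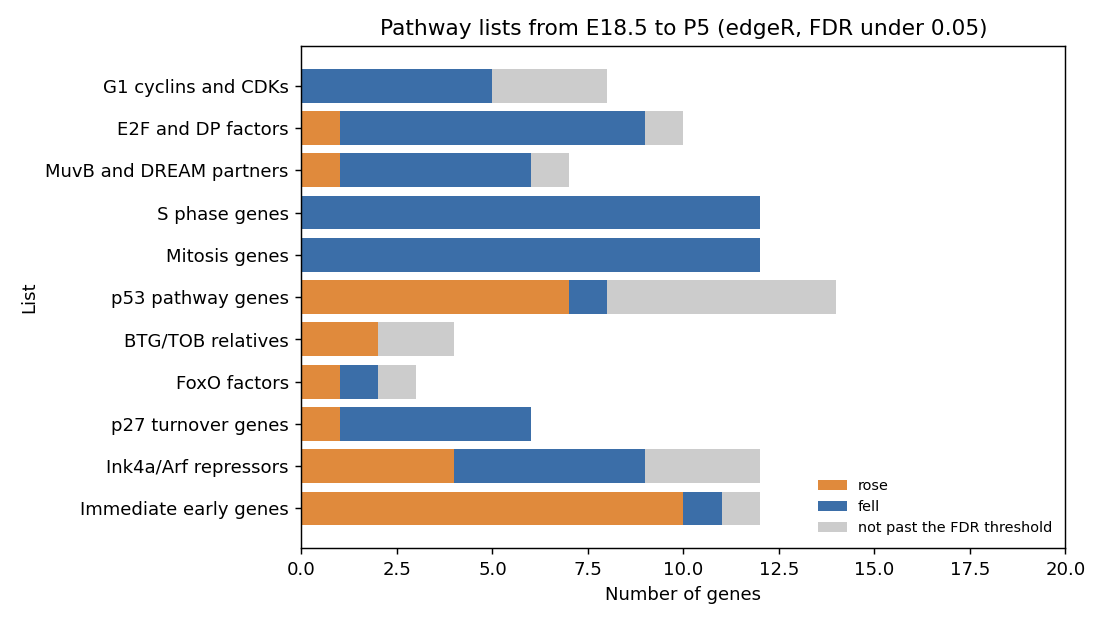
Number of genes per pathway list that rose, fell or were not past the FDR threshold from E18.5 to P5 (edgeR, FDR under 0.05 over all genes tested). Both S phase and mitosis lists are made up of genes that fell (12 and 12), and 10 of the 12 immediate early genes rose. Among all genes tested, 35.4% rose and 35.7% fell.

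Targets and partners of the inhibitors were followed over the same interval, from E18.5 to P5, in which 35.4% of all genes tested rose and 35.7% fell. Of the 8 G1 cyclins and CDKs, 5 fell and none rose from E18.5 to P5, with a median log2 fold change of -0.58. *Cdk4*, the kinase that INK4 proteins bind, went from 615 ± 44.0 CPM to 213 ± 4.27 CPM (log2 fold change -1.44, edgeR FDR = 2.9e-09). The D-type cyclins, the partners of this kinase, had log2 fold changes of -0.08 for *Ccnd1* (edgeR FDR = 0.43), 0.02 for *Ccnd2* (edgeR FDR = 0.78) and -0.23 for *Ccnd3* (edgeR FDR = 0.034). Of the 10 E2F and DP factors 8 fell and 1 rose (median -0.71): *Tfdp1*, *E2f4* and *E2f3* fell by 0.89, 0.48 and 1.07 on the log2 scale, and the DP factor *Tfdp2* rose by 0.30 (edgeR FDR = 0.0047). Among the 7 MuvB genes and MuvB partners 5 fell and 1 rose (median -0.68). *Rbbp4*, *Foxm1*, *Mybl2* and *Lin54* were among those that fell (log2 fold change -0.70, -1.08, -1.25 and -0.37). *Lin52* rose by 0.31 (edgeR FDR = 0.0088), and *Lin37* was at 0.10 (edgeR FDR = 0.42).

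Of the lists around *Cdkn1a*, *Cdkn1b* and *Btg2*, that of p27 turnover mostly fell and the others were mixed. From E18.5 to P5, 7 of 14 p53 pathway genes rose and 1 fell (median log2 fold change 0.16). Among all genes tested, 35.4% rose and 35.7% fell in this interval. The gene that fell was *Trp53* itself (p53), from 123 ± 8.70 to 63.4 ± 3.31 CPM (log2 fold change -0.87, edgeR FDR = 9.0e-08), while *Trp53inp1* rose by 1.33 (edgeR FDR = 1.8e-07), *Ccng1* rose by 0.30 (edgeR FDR = 0.014) and *Mdm4* was at -0.22 (edgeR FDR = 0.098). Of 6 genes in p27 turnover 5 fell and 1 rose (median -0.40). *Skp2* fell by 2.43 (edgeR FDR = 4.2e-09), and *Cks1b*, the cofactor of the SKP2 ubiquitin ligase, by 1.60 (edgeR FDR = 7.0e-09). *Skp1a*, *Cul1* and *Cops5* fell less, by 0.42, 0.32 and 0.38 (edgeR FDR = 1.4e-05, 1.2e-04 and 4.1e-04). *Foxo1*, a FoxO factor known to induce *Cdkn1b*, rose by 0.50 (edgeR FDR = 5.5e-05), *Foxo4* fell by 0.20 (edgeR FDR = 0.011) and *Foxo3* was at -0.04 (edgeR FDR = 0.67). Of the 4 BTG/TOB relatives of *Btg2*, *Btg3* and *Tob1* rose by 0.90 and 0.32 (edgeR FDR = 6.5e-06 and 0.025), and *Btg1* and *Tob2* were at -0.04 and -0.05 (edgeR FDR = 0.62 and 0.61).

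Repressors of the *Cdkn2a* and *Cdkn2b* locus went both ways, and 4 of 12 genes rose while 5 fell in the interval around birth (median log2 fold change -0.14). This is near the shares of all genes tested, of which 35.4% rose and 35.7% fell. The Polycomb genes *Suz12* and *Rnf2* fell by 0.71 and 0.41 (edgeR FDR = 7.6e-07 and 4.1e-05), and the T-box genes *Tbx2* and *Tbx3* rose by 0.30 and 0.73 (edgeR FDR = 0.016 and 2.8e-05). Of 12 immediate early genes, a group to which *Btg2* is often counted, 10 rose and 1 fell in this interval (median 1.08). From P5 to P8, where *Btg2* fell, 5 of them rose and none fell (median 0.43), against 9.75% and 8.21% of all genes. *Dusp1* rose by 1.24 and by 1.01 in these intervals (edgeR FDR = 5.8e-06 and 0.0014), and *Jun* rose by 0.37 in the first (edgeR FDR = 4.3e-04) and was at 0.09 in the second (edgeR FDR = 0.37).

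The genes whose pattern over the 12 libraries was most like that of a member were named by Pearson's r of log2(CPM + 1) among 12158 genes with a mean of at least 5 CPM. The libraries share a time-point, so these values describe the course and are given without a test. *Cdkn2b* was most like *Selenop* (selenoprotein P, r = 0.998) and *Napsa* (napsin A, an aspartic protease of AT2 cells, r = 0.998). *Napsa* itself went from a mean of 11.2 to 251 CPM between E18.5 and P5. *Cdkn1a* was most like *Dhrs3* (r = 0.993), *Cdkn2c* like *Rnaset2a* and *Kcnk6* (both r = 0.984), *Rb1* like *Ddx58* (r = 0.995) and *Jup* (plakoglobin, r = 0.994), and *Rbl1* like *Ints5* (r = 0.996) and *Gpc6* (a glypican, r = 0.995). *Rbl2* was most like *Nr3c1*, the glucocorticoid receptor gene (r = 0.974), and *Insig2* (r = 0.968). For the remaining 4 members the highest r was lower. The closest genes were *Tmc7* and *Kdm4c* for *Cdkn1b* (r = 0.916 and 0.913) and *mt-Atp6* and *mt-Co2* for *Cdkn2d* (r = 0.904 and 0.893). For *Btg2* they were *Rgs2* and *Atp6v1g1* (r = 0.935 and 0.929). *Cdkn2a*, whose values were at most 0.657 CPM, was closest to *Uckl1* and *Tnfrsf12a* (r = 0.939 and 0.936).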

How the data were processed

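RNA was extracted from flash-frozen whole lungs and sequenced from TruSeq libraries in 12 samples, 3 at each of E15.5, E18.5, P5 and P8. Per the study's methods and the labels, the authors aligned reads to mm10 with TopHat2 2.1.1 and Bowtie2 2.3.4 and counted them per Gencode gene with HTSeq 0.10.0. The deposited counts are raw whole reads of the 16152 genes kept as expressed. The deposited CPM values are reads scaled to the mapped reads of the library for 51825 genes, and multiplying by the mapped reads gave whole reads for 100% of values (tolerance 0.001), equal to the counts wherever a gene is in both tables. A deposited table of exon inclusion was not used.

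Symbols were matched for 16136 genes. The 15994 genes reaching 1 CPM in 3 or more libraries were fitted with edgeR 4.0.16 (TMM, quasi-likelihood test, 1 coefficient per time-point, all 12 libraries, Benjamini-Hochberg FDR under 0.05), under R 4.3.3; "rose" and "fell" mean this threshold, and the stricter call needs an absolute log2 fold change above 1. Standard errors are on the log2 scale. Ratios were tested by exact permutation in Python 3.11.15. Levels per kilobase use merged exons of Gencode vM21. The code was tested on simulated data. Replicates differed beyond sampling noise (chi-square per gene from 13.0 to 75.4), so none is a copy. Replicate numbers did not pair the libraries (3 of 18 correlations over 0.1). Alternatives were other scalings, no filter, DESeq2 1.42.0, limma-voom 3.58.1, a fit of 2 time-points, a replicate block, and left-out libraries, and, chosen after seeing the data, a fit on the recovered reads with all libraries and without E15.5 replicate 2.

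The members, gene lists and tests were chosen with earlier results of these data known. Named are all members, *Cdkn1c*, up to 4 genes of a list with the highest mean CPM, and the 2 genes with the highest r to each member, of which 1 is not reported here. Counting precision depends on depth, from 48436716 to 62279460 mapped reads per library.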

Additional observations from a re-analysis of the deposited data

Results flagged for a closer look

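*Cdkn2a* is in the CPM table and not in the table of counts, so the planned count test does not cover it, and of the planned tests only the ratio to *Cdkn2b* uses it. It was at a mean of 0.453 CPM in the P5 libraries, above the E18.5 libraries, which held 1 read among them.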

How the results depend on the processing

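From E15.5 to E18.5 the 5 members past the threshold became 2 with limma-voom, 3 without the 3 libraries with thymus genes and 8 of 10 on the recovered reads of all genes with no filter, and between 2 and 6 with 1 library left out: 3 without E15.5 replicate 1 or 2 or E18.5 replicate 2, and 2 without E18.5 replicate 1. From P5 to P8 the count of 1 became 0 without the 3 libraries with thymus genes. The *Cdkn2b* to *Cdkn2a* ratio difference of 1.03 became 2.93 with CPM + 0.1, past the threshold. All other alternatives left the counts within 1.5 times and the ratios on their side of the threshold. The cause of the exceptions was not tested. Shares of all genes past the threshold are given for the main fit only. Whether these counts of members moved more than those of all genes is therefore not shown. From E15.5 to E18.5 a fit of only these 2 time-points moved *Cdkn2c* and *Rb1* below the threshold and *Cdkn2d* above it, and the recovered reads moved *Cdkn1a* and *Cdkn1b* above it. Members not past the threshold changed sign as follows. For *Rbl1* from E15.5 to E18.5 the log2 fold change was -0.0165 with library size only and -0.0232 without the 3 libraries with thymus genes, and from -0.0238 to 0.0232 with 1 library left out. For *Cdkn2d* it was -0.0132 from E18.5 to P5 with library size only and -0.0786 from E15.5 to P8 without the 3 libraries. From P5 to P8, without these 3, *Cdkn1b* was at 0.065, *Cdkn2b* at 0.00035 and *Rbl2* at 0.0557, and *Rbl2* was at 0.0086 with library size only, 0.0033 with DESeq2 size factors and 0.0038 with the DESeq2 test. With 1 library left out, this interval gave from -0.0964 to 0.0215 for *Cdkn1b*, from -0.0023 to 0.0671 for *Rbl1* and from -0.0502 to 0.0219 for *Rbl2*, and the difference of the intervals before and after E18.5 from -0.21 to 0.27 for *Cdkn1b* and from -0.0116 to 0.128 for *Btg2*.

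With the replicate number as a block, the counts of members past the threshold were 5, 7, 1 and 8 in the 4 comparisons and 5 and 6 for the differences, as without it, and it changed no call. The block is not supported by a pairing of the libraries, whose same-numbered replicates correlated from -0.34 to 0.30. With few reads, the precision of *Cdkn2a* and of *Cdkn2b* before birth is limited by depth.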
